A study of Mus musculus with 4 samples.

Results

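The genes followed here are 40 genes of synaptic vesicles, the presynaptic active zone, the neuronal cytoskeleton and the postsynaptic density, together with general markers of neurons, measured in the mouse cortex after a stroke. They were listed by name. A spot belonged to a gene when its RefSeq accession mapped to the gene's symbol, and the brightest probe stood for the gene. All 40 were found among the 24565 features tested, on 60 probes in all. On every array, the probe used for each of the 40 was well above background in both channels. Cut into 5 equal bands of brightness, the brightest band of features held 30 of the 40.

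Cortex from Ndrg2KO mice, called knockout-labelled below, was compared with cortex from wild-type mice. Ndrg2 belongs to the N-myc downstream regulated family and is strongly expressed in astrocytes. Both groups were of the strain C57BL/6, 8 weeks old, and had the left middle cerebral artery closed for good by electrocoagulation. The cortex on the injured side was taken 24 h later. The labels do not say which part of Ndrg2 was deleted, how many animals a sample held or of which sex they were, and cortex without ischaemia was not analysed here. Each of 4 Agilent arrays took RNA of both groups, Cy3 marking the knockout-labelled sample and Cy5 the wild-type one with no dye swap, so a dye effect of a single probe and genotype cannot be told apart. A change is the log2 signal of the knockout-labelled sample minus that of the wild-type sample on its array, after loess, an intensity-dependent correction within each array. It passed at an adjusted p under 0.05, by limma with Benjamini-Hochberg adjustment over all features. The p-values measure the spread between these arrays, which may in part be technical.

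At a synapse, vesicles filled with transmitter dock at the active zone, and calcium triggers their fusion through SNARE proteins on the vesicle and the plasma membrane. Neurofilaments and microtubules support the axons and dendrites that carry these synapses, and a scaffold of postsynaptic density proteins holds the receptors opposite. Neurons are the cells most sensitive to loss of blood flow, and their transcripts are commonly used to gauge how much neuronal tissue a piece of injured cortex still holds. In a bulk sample, fewer neurons and less RNA per neuron cannot be told apart.

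The median of the neuronal genes lay near 0 in knockout-labelled cortex relative to wild type. By their brightest probes, single members moved in both directions by small amounts. The median log2 ratio of the 40 genes was -0.01, beside -0.02 for all features and 0.0035 for the brightest band of features. On arrays 1 to 4 the members' median stood at 0.04, -0.05, 0.05 and -0.08. Of the 40, 8 fell (20.0%), 5 rose (12.5%) and 27 did not pass, while 12.7% of all features were lower and 8.63% higher. In either direction, 21.3% of all features and 31.8% of the brightest band passed. In that band 15.8% were lower and 16% higher, so neither share of the members stood far from features of like brightness. The mean log2 ratios of the 40 genes ran from -0.34 to 0.32, and none reached a 1.5-fold difference by its brightest probe. Over all 60 probes of these genes, 4 were higher by at least 1.5-fold, beside 0.268% of all kept probes. They are probes of Cplx2, counted among the 8 that fell by its brightest probe, and of Mapt, both described below.

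**Figure D1:**
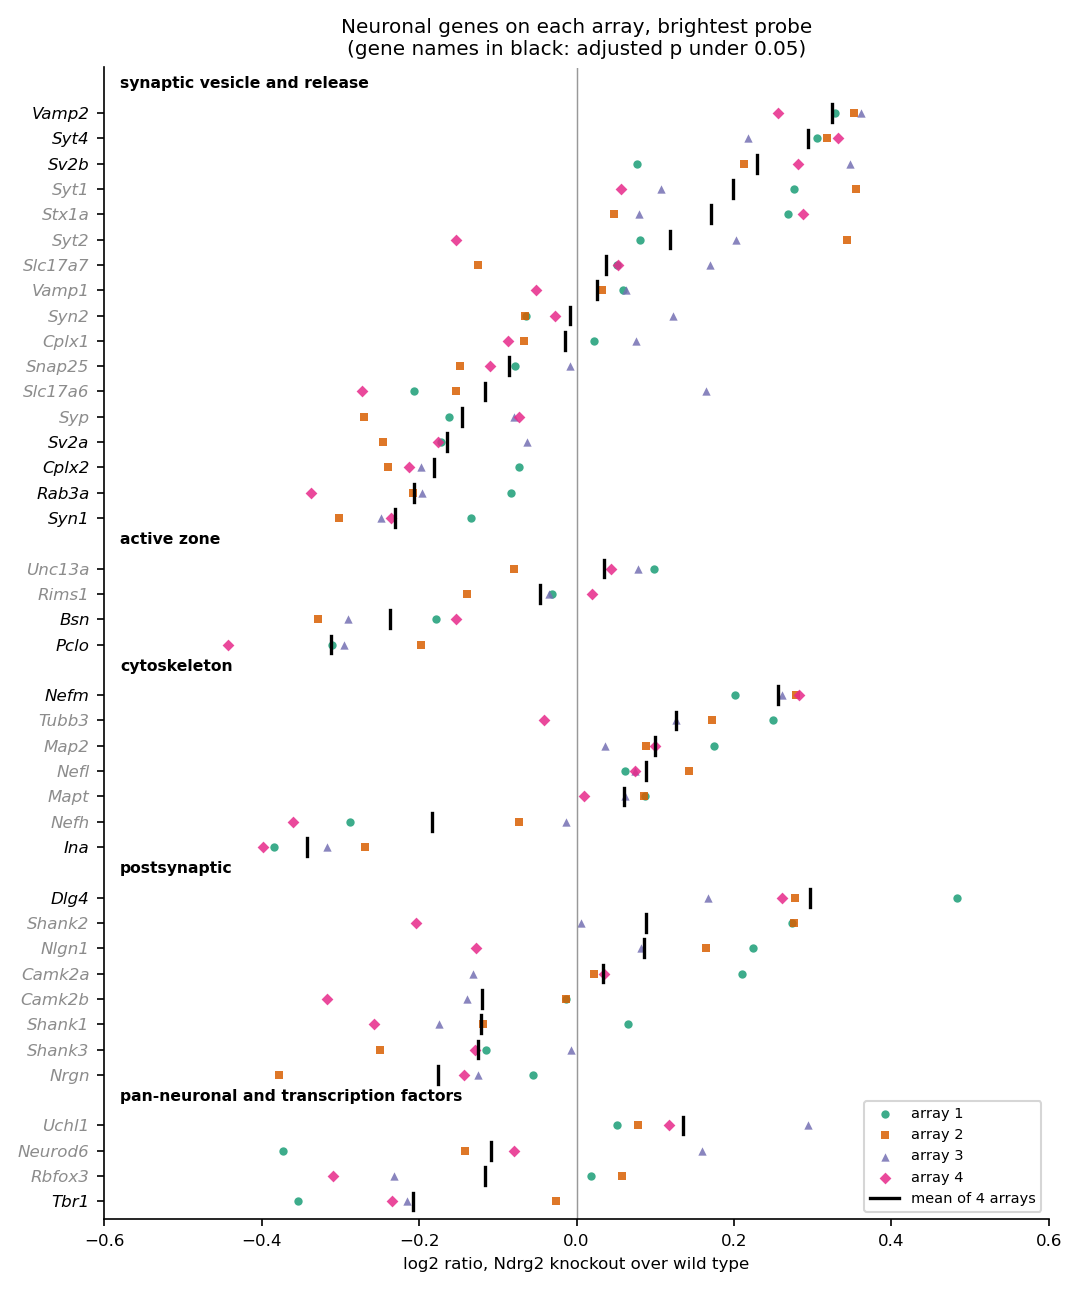
Log2 change, knockout-labelled minus wild-type, (x axis) for each of the 40 genes (rows, grouped by role) on arrays 1 to 4 (points), with the mean as a bar and the names of genes that passed in black. The 8 genes that fell and the 5 that rose had the same sign on all 4 arrays, and the means of the remaining genes lay between -0.18 and 0.20.

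The 250 bases before the transcription start are shown for Ina, Pclo and Bsn, which fell, and Dlg4, which rose, all with groups that did not overlap, for Syn1, which fell and holds elements known from neuronal promoters, and for Cplx2, whose probes disagreed. They are from RefSeq on GRCm38.p6, on the gene's strand, at Ina chr19:47014431-47014680 (+ strand), Pclo chr5:14514668-14514917 (+ strand), Bsn chr9:108190384-108190633 (- strand), Dlg4 chr11:70016953-70017202 (+ strand), Syn1 chrX:20920919-20921168 (- strand) and Cplx2 chr13:54302306-54302555 (+ strand). Capitals mark, on either strand, TTCAGCACC (the left part of RE1, the element bound by the repressor REST), TGACGTCA (the cyclic AMP response element) and GGGCGG (the GC box of the Sp1 family). No 2 of these motifs overlapped in the sequences shown.
Ina: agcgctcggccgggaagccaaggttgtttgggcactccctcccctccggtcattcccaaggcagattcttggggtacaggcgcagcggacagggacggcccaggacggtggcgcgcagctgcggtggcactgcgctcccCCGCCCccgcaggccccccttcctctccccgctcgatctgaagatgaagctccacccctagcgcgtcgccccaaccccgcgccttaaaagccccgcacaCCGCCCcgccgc
Pclo: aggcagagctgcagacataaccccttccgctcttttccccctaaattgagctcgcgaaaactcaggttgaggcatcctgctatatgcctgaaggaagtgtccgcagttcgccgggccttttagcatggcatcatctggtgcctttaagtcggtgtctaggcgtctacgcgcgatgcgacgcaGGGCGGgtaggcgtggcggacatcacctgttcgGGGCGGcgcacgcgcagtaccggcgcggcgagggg
Bsn: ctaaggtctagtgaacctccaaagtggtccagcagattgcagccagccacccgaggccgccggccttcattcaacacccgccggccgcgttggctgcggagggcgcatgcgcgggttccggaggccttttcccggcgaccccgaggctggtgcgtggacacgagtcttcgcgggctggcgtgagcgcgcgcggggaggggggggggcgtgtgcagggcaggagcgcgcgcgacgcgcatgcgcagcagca
Dlg4: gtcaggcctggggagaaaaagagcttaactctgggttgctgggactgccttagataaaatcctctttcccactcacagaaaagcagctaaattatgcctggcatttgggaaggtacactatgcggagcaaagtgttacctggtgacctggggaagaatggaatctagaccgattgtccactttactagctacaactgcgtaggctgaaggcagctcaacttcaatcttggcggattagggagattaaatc
Syn1: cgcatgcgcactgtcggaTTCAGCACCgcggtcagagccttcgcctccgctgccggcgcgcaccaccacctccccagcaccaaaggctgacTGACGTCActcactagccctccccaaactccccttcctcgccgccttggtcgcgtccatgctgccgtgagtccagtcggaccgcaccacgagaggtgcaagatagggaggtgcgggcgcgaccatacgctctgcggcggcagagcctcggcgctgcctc
Cplx2: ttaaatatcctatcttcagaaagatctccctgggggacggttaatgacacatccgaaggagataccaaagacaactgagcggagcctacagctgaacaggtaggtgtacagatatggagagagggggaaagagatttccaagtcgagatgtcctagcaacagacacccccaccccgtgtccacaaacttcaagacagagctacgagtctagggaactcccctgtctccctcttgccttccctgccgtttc
The window of Syn1 held TTCAGCACC and TGACGTCA once each. Ina and Pclo held GGGCGG 2 times each, and the windows of Bsn, Cplx2 and this start of Dlg4, the first of 3, held none of the motifs. Entries were found for 30 of the 40 genes, with 41 starts. GGGCGG was in 56.1% of these 41 windows and in 32.7% of all 32851 windows of the same length. TTCAGCACC was in 2 of the 41, those of Syn1 and Nlgn1, and in 0.301% of all, and TGACGTCA in 1 of the 41 and in 1.55% of all. Such matches describe the letters of these windows only.

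Signals in each channel set the labels and the tissue in context. In each array's channels, 73.6 to 74.9% of spots outside the controls were well above background for knockout-labelled samples, and 76.7 to 79.0% for wild-type samples. Ndrg2 itself fell by 0.18 ± 0.05 (SD, n = 4; limma, adjusted p = 0.0248) and kept a high signal, 15.50 to 15.57 in knockout-labelled and 15.67 to 15.78 in wild-type samples. That call was lost in 6 of 16 other ways of processing, and where the probe lies relative to the deletion is not known here, so it does not settle the labels. The 12 neuron markers, 9 of them among the 40 genes, were all tested. They summed to a signal of 391730 to 415512 in knockout-labelled and 400220 to 419485 in wild-type samples, ranges that overlap. The probes of Syt1, Eno2, Snap25 and Syp were the brightest and weigh most in that sum. Of the 12, 2 fell and 0 rose. Those that fell, Elavl4 (-0.30) and Stmn2 (-0.22), are outside the 40 genes (limma, adjusted p = 0.0119 and 0.0240). The 10 astrocyte markers summed to 203767 to 231054 in knockout-labelled and 263020 to 280521 in wild-type samples, and 5 of them fell. Aldoc, near the top of the brightness range, carried the largest part of that sum, with mean log2 signals of 16.61 in knockout-labelled and 17.00 in wild-type samples. Beside the marker counts above and below, 12.7% of all features were lower and 8.63% higher. The 10 microglia markers summed to 101029 to 109788 in knockout-labelled and 118230 to 126846 in wild-type samples, and 5 fell. Sums of 7 neutrophil markers (44667 to 53182 in knockout-labelled and 56804 to 65487 in wild-type samples, 1 lower) and of 8 monocyte and macrophage markers (24117 to 32021 in knockout-labelled and 35365 to 38840 in wild-type samples, 2 lower) also did not overlap, but each sum is carried mostly by 1 bright probe, that of Csf3r and that of Ms4a4c. Over arrays 1 to 4 the medians were -0.22, -0.31, -0.12 and 0.05 for neutrophil markers and -0.51, -0.58, -0.08 and 0.41 for monocyte and macrophage markers, so the arrays differed in direction, and Ly6g, Ngp, Ltf, Ly6c2 and Cd68 were not tested. Endothelial sums overlapped, with 1 of 10 markers lower. Striatal markers, which gauge the dissection, had array medians of -0.43, -0.56, 0.20 and -0.06 with 2 of 10 lower, and oligodendrocyte markers of -0.13, -0.25, 0.27 and 0.44 with 2 of 10 higher. The part of these shifts in the neuronal results was not tested.

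Of 17 synaptic vesicle and release genes, 4 fell (23.5%) and 3 rose (17.6%) by the brightest probe. Over all features 12.7% were lower and 8.63% higher, and in the brightest band 15.8% were lower and 16% higher. Among the SNARE and synaptotagmin genes of this group, Vamp2 and Syt4 rose and none fell. Vamp2 encodes synaptobrevin, the SNARE of the synaptic vesicle. Its log2 signal was 15.33, 15.55, 15.35 and 15.36 in knockout-labelled samples 1 to 4, against 15.01, 15.20, 14.99 and 15.10 in wild-type samples. Every knockout-labelled sample lay above every wild-type sample, a rise of 0.32 ± 0.05 or 1.25-fold (limma, adjusted p = 0.00467). Syt4, a synaptotagmin of dense-core vesicles that does not bind calcium like Syt1, had log2 signals of 12.09, 11.99, 11.83 and 11.97 in knockout-labelled samples, against 11.79, 11.67, 11.61 and 11.64 in wild-type samples. Here too the groups did not overlap, and the rise was 0.29 ± 0.05 or 1.23-fold (adjusted p = 0.00655).

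Syt1, the main calcium sensor of fast release, stood at 0.28, 0.35, 0.11 and 0.06 on the 4 arrays. All knockout-labelled signals were above all wild-type signals, but the mean of 0.20 ± 0.14 did not pass (limma, adjusted p = 0.0528). Its probe is among the very bright ones, where features of like brightness had a median of -0.11, and 196 of the 200 features nearest to it in brightness had a lower ratio. When each array was centred on features of like brightness, Syt1 stood at 0.33 and passed (adjusted p = 0.0135). It passed as higher in 5 of 16 other ways of processing, that one among them, and as lower in 1, median centring (-0.49). Stx1a, a SNARE of the plasma membrane, had a mean of 0.17 (95% interval 0.04 to 0.30; adjusted p = 0.0681). Snap25, its partner, had a mean of -0.09 (-0.19 to 0.02), and Vamp1, the other vesicle SNARE listed, of 0.03 (-0.07 to 0.13). Syt2 was at 0.12 (-0.06 to 0.30). These genes of the fusion machinery did not pass, and the intervals leave room for differences of about the size seen for Vamp2 at the upper end in Stx1a and Syt2.

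Among genes of vesicle-associated proteins, Syn1, Rab3a and Sv2a fell and Sv2b rose. Syn1 encodes synapsin 1, which tethers the reserve pool of vesicles to actin. Its log2 signals were 15.44, 15.30, 15.21 and 15.19 in knockout-labelled samples, against 15.57, 15.60, 15.46 and 15.43 in wild-type samples. The groups overlapped only through knockout-labelled sample 1, each array gave a lower value in its knockout-labelled sample, and the mean change was -0.23 ± 0.07 (limma, adjusted p = 0.0152). The call was lost without replicate 2 (-0.21, adjusted p = 0.0628), without replicate 3 (-0.22, adjusted p = 0.0524) and with the scanner software's log ratios (-0.15, adjusted p = 0.0877) or the series matrix, which holds the same ratios. Syn2, its paralog, was at -0.01 (-0.12 to 0.10), and a second probe of Syn2 stood at -0.15. Rab3a, the small GTPase of vesicle docking, had signals of 16.31, 16.06, 16.04 and 15.81 in knockout-labelled samples, against 16.40, 16.26, 16.24 and 16.15 in wild-type samples. Sample 1 was the highest and sample 4 the lowest in both groups, the groups overlapped, and the change of -0.21 ± 0.10 (adjusted p = 0.0305) was lost when arrays were centred on features of like brightness (-0.08, adjusted p = 0.300) and turned to 0.023 with the scanner software's log ratios.

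The vesicle glycoprotein genes Sv2a and Sv2b, which are paralogs, went opposite ways. Sv2b had signals of 13.72, 13.87, 13.88 and 14.01 in knockout-labelled samples, against 13.64, 13.65, 13.53 and 13.73 in wild-type samples. Only knockout-labelled sample 1 fell within the wild-type range, and the rise was 0.23 ± 0.12 (limma, adjusted p = 0.0256). Sv2a fell by 0.16 ± 0.08 (adjusted p = 0.0428), lower on each array. Of 16 other ways of processing, Sv2a lost its call in 9 and Sv2b in 7. Syp, synaptophysin, had a mean of -0.15 (-0.26 to -0.03; adjusted p = 0.0727), with every knockout-labelled sample below every wild-type sample. The vesicular glutamate transporters of cortical and of mainly subcortical excitatory neurons did not pass: Slc17a7 was at 0.04 (-0.09 to 0.17) and Slc17a6 at -0.12 (-0.29 to 0.06).

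Over all 40 genes the 4 samples of each label did not overlap for 5 that were lower and 5 that were higher, beside 10.6% of all features with every knockout-labelled sample below and 9.04% with every one above. The 5 lower genes were Syp, Bsn, Pclo, Nefh and Ina, and the 5 higher were Vamp2, Syt1, Syt4, Nefm and Dlg4.

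**Figure D2:**
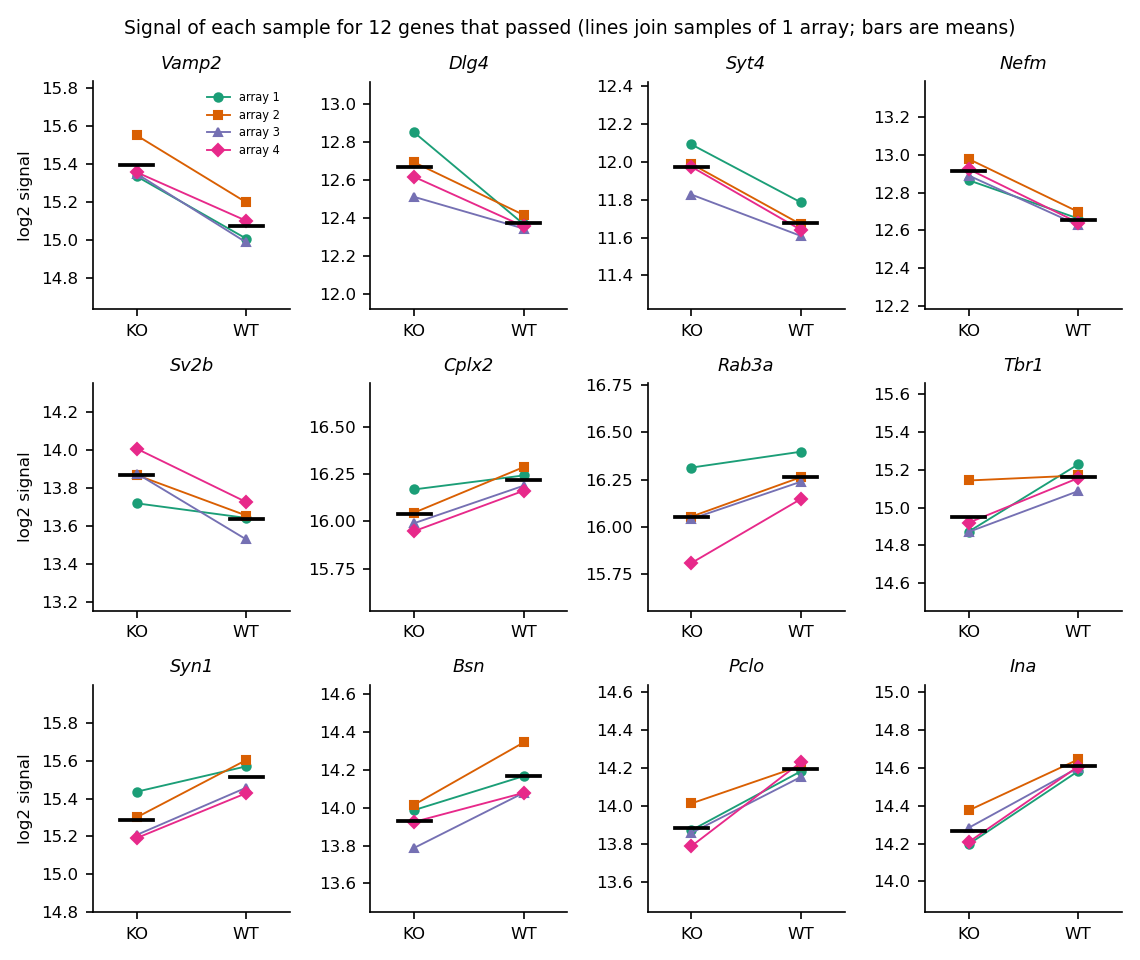
Normalised log2 signal (y axis, each panel spanning the same range) of the 4 knockout-labelled (KO) and 4 wild-type (WT) samples for the 12 genes with the largest changes among those that passed. Lines join the 2 samples of an array and bars are means, and Ina, Pclo, Bsn, Vamp2, Syt4, Nefm and Dlg4 show groups that do not overlap.

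The genes of the pair of giant scaffold proteins of the active zone fell together. Pclo encodes piccolo, and Bsn encodes bassoon, which organise the cytomatrix where vesicles dock. The log2 signals of Pclo were 13.87, 14.01, 13.86 and 13.79 in knockout-labelled samples, against 14.18, 14.21, 14.15 and 14.23 in wild-type samples. The fall was 0.31 ± 0.10, or 1.24-fold (limma, adjusted p = 0.00916), and the groups did not overlap. The other 3 probes of Pclo also lay below 0, at -0.32, -0.11 and -0.21, and 2 of these passed in a fit of all 30259 kept probes (adjusted p = 0.0173 and 0.0198), where 11.7% of probes were lower and 20.9% passed in either direction. Of 8 other ways of processing, the second probe lost its call in 1 and the fourth in 5. Bsn, measured by 1 probe, had signals of 13.99, 14.02, 13.79 and 13.92 in knockout-labelled samples, against 14.17, 14.34, 14.08 and 14.08 in wild-type samples. It fell by 0.24 ± 0.08 (adjusted p = 0.0163), again without overlap. The other active zone genes did not pass: Rims1, a scaffold that binds Rab3, was at -0.05 (-0.15 to 0.06), and Unc13a, the vesicle priming factor Munc13-1, at 0.04 (-0.07 to 0.14). The call of Bsn was lost without replicate 2 (-0.21, adjusted p = 0.0654) and without replicate 3 (-0.22, adjusted p = 0.0578).

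The neurofilament genes did not move as 1 unit. Ina encodes alpha-internexin, an intermediate filament protein of neurons that assembles with the neurofilament triplet. Its log2 signals were 14.20, 14.38, 14.28 and 14.21 in knockout-labelled samples, against 14.58, 14.64, 14.60 and 14.61 in wild-type samples. The highest knockout-labelled sample, at 14.38, was below the lowest wild-type sample, at 14.58, and the fall of 0.34 ± 0.06, or 1.27-fold, was the largest among the 40 genes (limma, adjusted p = 0.00449). Nefm, the medium neurofilament chain, rose by 0.26 ± 0.04 or 1.19-fold (adjusted p = 0.00878). Its signals were 12.86, 12.98, 12.89 and 12.92 in knockout-labelled samples, against 12.66, 12.70, 12.63 and 12.64 in wild-type samples, again without overlap.

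Nefl, the light chain, is on chromosome 14 like Nefm, and that chromosome also carries Ndrg2. The log2 signals of Nefl were 14.77, 14.89, 14.67 and 14.62 in knockout-labelled samples, against 14.71, 14.75, 14.60 and 14.54 in wild-type samples. Each array gave a slightly higher value in its knockout-labelled sample, the groups overlapped, and the mean of 0.09 (-0.0068 to 0.18) did not pass (adjusted p = 0.159). Nefh, the heavy chain on another chromosome, had a mean of -0.18 (-0.34 to -0.03; adjusted p = 0.0884), and its second probe stood at -0.03. Of the microtubule genes, Map2, a protein of dendrites, was at 0.10 (-0.0010 to 0.20), Tubb3, the neuronal beta-tubulin, at 0.13 (-0.0034 to 0.26), and Mapt, which encodes tau, at 0.06 (-0.03 to 0.16). None of these 3 passed, and a second probe of Map2 stood on the other side of 0, at -0.11.

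Of the 8 postsynaptic genes, 1 rose and none fell by the brightest probe, beside 8.63% higher and 12.7% lower over all features. Dlg4 encodes PSD-95, the main scaffold of the postsynaptic density. Its log2 signals were 12.85, 12.69, 12.51 and 12.62 in knockout-labelled samples, against 12.37, 12.42, 12.34 and 12.36 in wild-type samples. The groups did not overlap, array 1 gave the largest difference, and the rise was 0.30 ± 0.13 or 1.23-fold (limma, adjusted p = 0.0151), a call lost without replicate 2 (0.30, adjusted p = 0.0558). The Shank scaffolds, which link PSD-95 complexes to actin, did not pass: Shank1 was at -0.12 (-0.26 to 0.02), Shank2 at 0.09 (-0.11 to 0.29) and Shank3 at -0.12 (-0.24 to -0.0070). The kinase subunit gene Camk2a was at 0.03 (-0.11 to 0.17) and Camk2b at -0.12 (-0.26 to 0.02). Nrgn, neurogranin, a calmodulin-binding protein of dendritic spines, was at -0.18 (-0.32 to -0.04; adjusted p = 0.0753), and the adhesion gene Nlgn1 at 0.09 (-0.06 to 0.23).

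Of the 4 general neuronal markers and cortical transcription factors, 1 fell, Tbr1, beside 12.7% lower over all features. Tbr1 is a T-box factor of deep-layer glutamatergic neurons. Its log2 signals were 14.87, 15.14, 14.87 and 14.92 in knockout-labelled samples, against 15.23, 15.17, 15.09 and 15.16 in wild-type samples. Sample 2 barely differed, the groups overlapped through it, and the change was -0.21 ± 0.14 (limma, adjusted p = 0.0438). A second, dim probe of Tbr1 stood at 0.02, and the call was lost in 8 of 16 other ways of processing. Rbfox3, which encodes the nuclear antigen NeuN, was at -0.12 (-0.28 to 0.05), Uchl1, a ubiquitin hydrolase abundant in neurons, at 0.13 (0.01 to 0.26; adjusted p = 0.106), and Neurod6, a bHLH factor of excitatory neurons, at -0.11 (-0.30 to 0.08).

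Brightness mattered for reading these values. At the top of the brightness range most features lay below 0: the 200 features nearest to Cplx2, Rab3a or Camk2b in brightness had a median of -0.11, against 0.06 for those nearest to Ina and 0.03 for those nearest to Pclo. Only 5 of the 200 features nearest to Pclo had a lower ratio than Pclo, 8 for Ina, and 10 each for Bsn and Syn1. For the genes that rose, 193 of 200 lay below Syt4, 192 below Vamp2, 189 below Dlg4 and 188 below Nefm. For Cplx2 and Rab3a, 60 and 52 of the 200 lay lower, so their brightest probes were inside the bulk of features as bright.

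**Figure D3:**
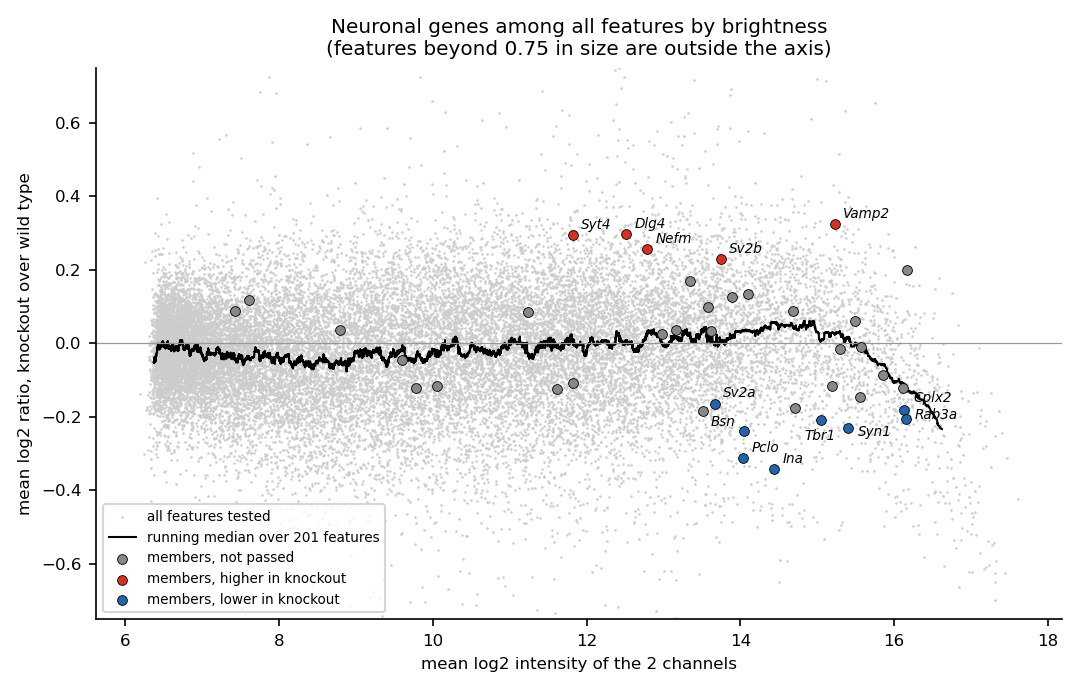
Mean log2 change, knockout-labelled minus wild-type, (y axis) against mean log2 intensity of both channels (x axis) for all features (grey) with their running median (line) and the 40 genes (large points, coloured by call). Ina, Pclo, Bsn and Syn1 lie below the 5% point and Vamp2, Syt4 and Syt1 (the unnamed grey point at 0.20, far right) above the 95% point of the 200 features nearest in brightness, while Cplx2 and Rab3a lie near the running median.

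Probes of 1 gene disagreed most for Cplx2, one of the complexins that clamp and promote SNARE fusion. Its paralog Cplx1, measured by 1 probe, was at -0.01 (-0.12 to 0.09). The brightest probe of Cplx2 had log2 signals of 16.17, 16.05, 15.99 and 15.95 in knockout-labelled samples, against 16.24, 16.29, 16.19 and 16.16 in wild-type samples, a small fall of 0.18 ± 0.07 that ended when arrays were centred on features of like brightness (-0.06, adjusted p = 0.350). Of 16 other ways of processing, that one among them, Cplx2 lost its call in 8 and turned in sign in 1 more. The other 3 probes, which carry the same RefSeq accession, all rose. The second had signals of 16.49, 16.16, 15.84 and 15.94 in knockout-labelled samples, against 15.44, 15.45, 15.64 and 15.39 in wild-type samples, and rose by 0.62 ± 0.35. Array 1 gave the largest and array 3 the smallest difference of this probe, and no samples overlapped between the groups.

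The third probe of Cplx2 had 16.15, 15.89, 15.91 and 15.82 in knockout-labelled samples, against 15.10, 15.09, 15.36 and 15.18 in wild-type samples, and the fourth had 15.77, 15.20, 15.38 and 15.35 in knockout-labelled samples, against 14.61, 14.38, 14.84 and 14.63 in wild-type samples. These probes rose by 0.76 ± 0.21 (1.69-fold) and 0.81 ± 0.26 (1.75-fold), again without overlap. In the fit of all kept probes, where 9.29% were higher, the 3 probes passed with adjusted p-values of 0.0133, 0.00227 and 0.00303 (limma), and 0.268% of all probes were higher by at least 1.5-fold. The brightest probe was the only one of the 4 that fell (adjusted p = 0.0311 in that fit). The distance of 0.99 between the highest and lowest probe ranked 4 among the 4533 genes with several kept probes, whose median distance was 0.13, and probes with opposite calls were found in 2.03% of those genes. These genes were not matched to Cplx2, with its 4 probes, in their number of probes. Without the loess step, on arrays centred on their median, the 4 probes stood at -0.86, -0.02, 0.14 and 0.24. Probe sequences were not used here, so the positions of the probes on the transcript and the source of the gap were not tested.

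A further 3 genes had a probe apart from the brightest one, chosen for description after their values were seen. For Mapt the brightest and second probes stood at 0.06 and 0.08, while the third rose by 0.63 ± 0.13, or 1.55-fold (limma, adjusted p = 0.00161). Its log2 signals were 14.94, 14.87, 14.70 and 14.60 in knockout-labelled samples, against 14.28, 14.08, 14.09 and 14.12 in wild-type samples, so the groups lay well apart. All 3 probes of Mapt carry the same accession. For Rbfox3 the brightest probes were at -0.12 and -0.05, and the third, which carries another accession of the gene, rose by 0.35 ± 0.10 (adjusted p = 0.00605). The third probe had signals of 12.80, 12.71, 12.54 and 12.64 in knockout-labelled samples, against 12.37, 12.27, 12.29 and 12.37 in wild-type samples. A second probe of Camk2b rose by 0.19 ± 0.09 (adjusted p = 0.0332), beside -0.12 for the brightest, a call lost in 5 of 8 other ways of processing and turned in sign in 1.

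In all, 13 of the 40 genes had several probes, and 6 of these had probes on both sides of 0. Of the 20 probes that were not the brightest of their gene, 6 rose and 3 fell, beside 9.29% higher and 11.7% lower over all kept probes, and 3 of the 6 are probes of Cplx2. Vamp2, Syt4, Sv2b, Nefm and Dlg4, the 5 genes that rose, and Syn1, Sv2a, Rab3a, Bsn and Ina among those that fell had 1 probe each, so no other probe could be set beside them. When the mean of all kept probes stood for a gene, Cplx2 was at 0.50 and passed as higher (adjusted p = 0.0104), and Mapt was at 0.26 and passed too.

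**Figure D4:**
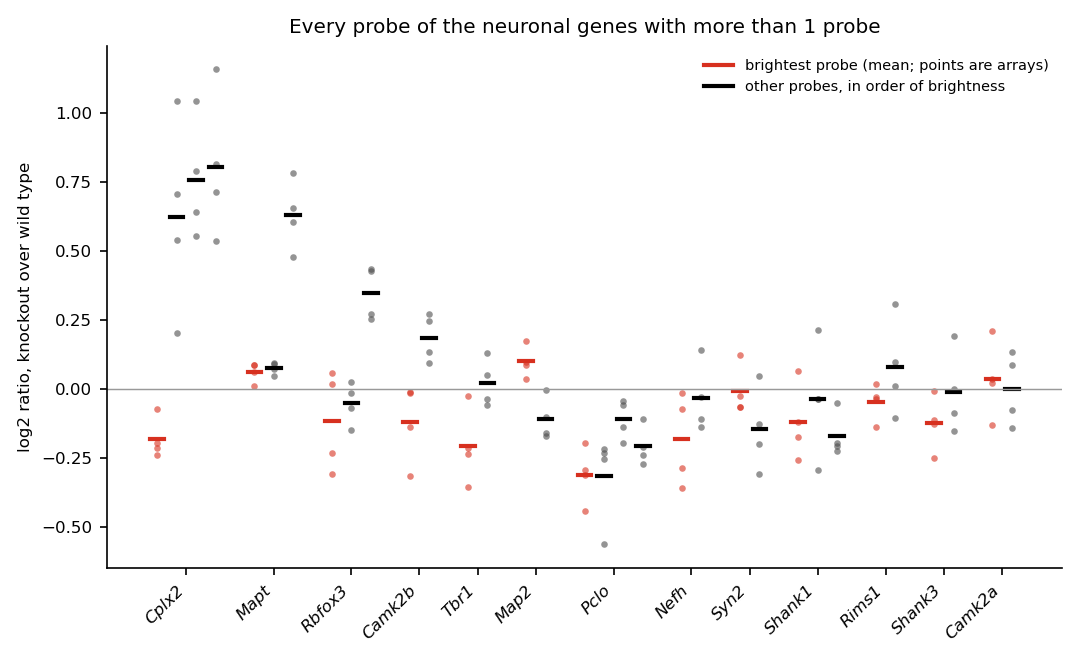
Log2 change, knockout-labelled minus wild-type, (y axis) of every probe of the 13 genes with several probes (x axis), with points for the 4 arrays, bars for means and the brightest probe in red. The other 3 probes of Cplx2 and the third probes of Mapt and Rbfox3 lie well above the brightest probe of the same gene, whereas all 4 probes of Pclo lie below 0.

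Other neuronal genes, from lists that exclude the 40, had medians near 0 and calls in both directions, with shares that differed by list, beside 12.7% lower and 8.63% higher over all features. Of 60 other presynaptic genes tested, 10 fell (16.7%) and 5 rose (8.33%), with a median of -0.04. Among them the liprin gene Ppfia4 fell by 0.31, Rph3a, the Rab3 effector rabphilin, by 0.40, and Syt6 by 0.33 (limma, adjusted p = 0.00677, 0.00686 and 0.00851). Of 44 other postsynaptic and adhesion genes, 5 fell and 5 rose (11.4% each), with a median of -0.01. The adhesion gene Cadm3 rose by 0.54 ± 0.08, with its second probe at 0.20, and Anks1b by 0.28. Begain, which encodes a PSD-95 binding protein, fell by 0.34.

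Of 47 other cytoskeletal genes, 15 fell (31.9%) and 4 rose (8.51%), with a median of -0.05, beside 15.8% lower and 16% higher in the brightest band of features. The kinesin genes of axonal transport Kif5a and Kif1a fell by 0.55 ± 0.02 and 0.49 ± 0.10, and Dpysl5 fell by 0.41. Kif3a, a kinesin gene of another family, rose by 0.38, its second probe standing at -0.02. The brightest probes of Kif5a and Kif1a lie at the top of the brightness range, and centred on features of like brightness Kif5a was at -0.09 (adjusted p = 0.220) and Kif1a at -0.29 (adjusted p = 0.0122). Of 35 other pan-neuronal genes, 10 fell (28.6%) and 8 rose (22.9%), with a median of -0.03: Scg5, a secretory granule chaperone, rose by 0.51 ± 0.03 and the splicing factor gene Rbfox2 by 0.75 ± 0.18, while Ncdn and Nsg2 fell by 0.41 and 0.38. Of 31 factors of cortical excitatory neurons, 2 fell (6.45%) and 5 rose (16.1%), with a median of -0.02. Sox5 rose by 0.71 ± 0.23 and Foxp1 by 0.21, a call lost in 7 of 16 other ways of processing, while Ldb2 fell by 0.28 and Lmo4 by 0.26. The call of Lmo4 was lost on centring by like brightness (-0.15, adjusted p = 0.0565).

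How far the calls among the 40 genes held was read over 16 other ways of processing. Ina and Pclo were lower and passed in all 16. Vamp2, Syt4 and Nefm were higher and passed in all but median centring of the arrays, which takes no account of brightness. Under that centring they stood at -0.26, -0.028 and -0.11, but the brightest band of features then had a median of -0.46. The median was -0.18 for all features and -0.43 for the 40 genes. Called lower were 34 of the 40 genes, beside 95.3% of the brightest band and 13177 of all 24565 features. Of the 40, 3 fell without replicate 2, 2 without replicate 3, 4 without replicate 4 and 6 without replicate 1, and 3 rose without replicate 2.

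**Figure D5:**
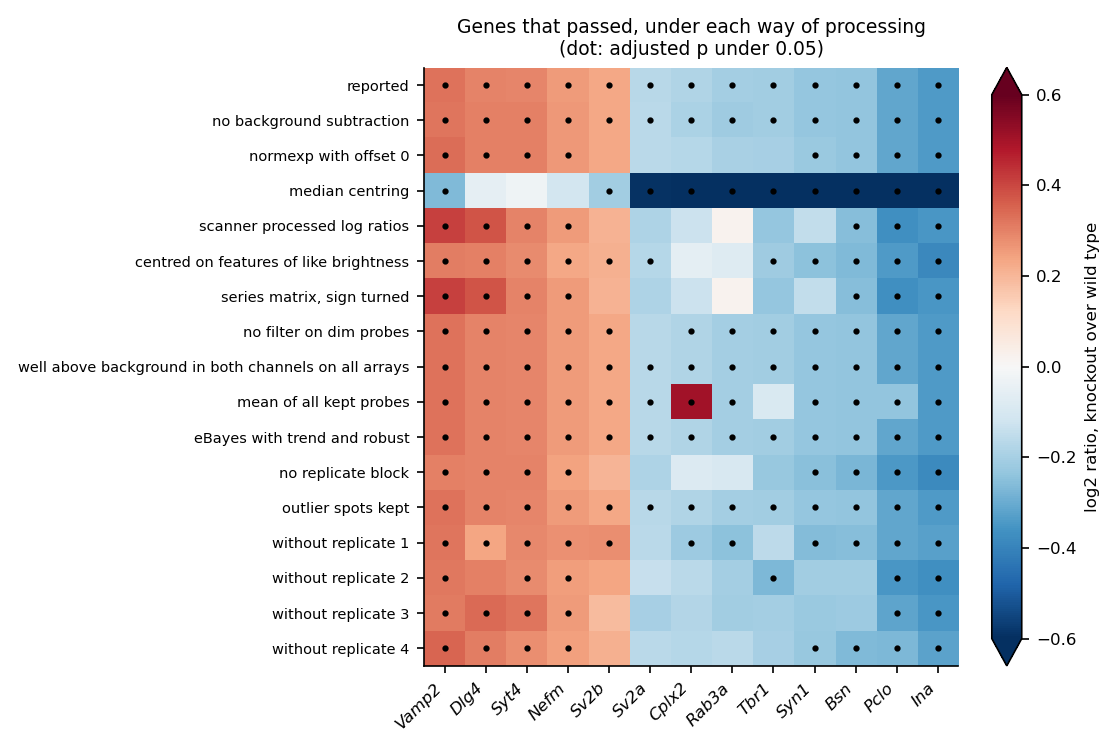
Log2 change, knockout-labelled minus wild-type, (colour) of the 13 genes that passed (columns) under the reported and 16 other ways of processing (rows), with dots where the adjusted p was under 0.05. Ina and Pclo keep their dots in every row, Vamp2 turns blue under median centring, and Cplx2 turns red when all its probes are averaged.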

How the data were processed

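Total RNA (200 ng per sample, per the labels' protocols) of the injured cortex was compared on 4 arrays, whose groups, dyes and replicate numbers came from the labels. Per the file headers, spots were read with Agilent Feature Extraction 11.0.1.1, while the submitters' processing notes name 10.7.3.1, and spot and background values are median intensities on a linear scale, used as deposited. Spot flags were deposited as yes-or-no values of another kind, named in the file headers. The deposited log10 ratio is wild type over knockout-labelled of background-subtracted, dye-normalized signals, per the file headers, and the deposited series matrix holds the same as log2 values, equal within 0.001 for 39030 probes. Its column medians were -0.05, -0.06, -0.04 and -0.03.

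Background was corrected with normexp (offset 50), and ratios were normalized by loess with control spots at weight 0 (limma 3.58.1, R 4.3.3). Spots marked as outliers (139 to 186 per array) were left out, spots of a probe were averaged, and 30259 of 39429 probes well above background on at least 3 arrays in either channel were kept. Accessions were named through RefSeq genes of GRCm38.p6, which gave 27427 probes a symbol, and the array design is on mm9 per the file headers. Each ratio was tested against 0 with lmFit and eBayes. Channel signals were taken after loess and Aquantile. The array pairs its 2 samples: deviations of both channels from their group means correlated at 0.22 to 0.59 within an array. Levels of different probes were not compared, except that the marker sums add them and so weigh each gene by its probe's brightness. Spike-in ratios had slopes of 0.728 to 0.739 against those planned. Only the last step, lmFit and eBayes with the adjustment, was run on simulated log ratios, drawn with the spreads seen in these features. Background correction, loess, the probe filter and the choice of probe were not simulated.

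The members, lists and rules were chosen with earlier results of these data known. Values in every sample are given for the 12 largest changes among members that passed, for members on chromosome 14 and for members whose probes had opposite calls, and up to 4 genes with the smallest p are named per other list, except genes that are not reported here; probes of Mapt, Rbfox3 and Camk2b, and Syt1 on each array, were added after their values were seen. Alternatives changed the background, normalization, filter, probe rule, test, pairing and arrays used.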

Additional observations from a re-analysis of the deposited data

Results flagged for a closer look

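In 3 of the 59 genes tested for it, 1 array stood apart from the other 3, its gap to the nearest value taking up a larger share of the whole range than Dixon's 95% critical value for 4 samples, and chance alone does so in about 1 of 20 genes. Nefl had 0.14 on array 2 and 0.06 to 0.07 on the others (0.845), a difference of small size. Kif3a had 0.51 on array 1 and 0.33 to 0.35 on the others (0.893). Ncdn had -0.33 on array 3 and -0.44 to -0.42 on the others (0.830).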

How the results depend on the processing

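Of the 40 genes, 8 fell and 5 rose as reported, and the counts of lower genes were 4 with normexp at offset 0, 3 with the scanner software's log ratios or the series matrix, 34 with median centring and 4 with no replicate block, that is with the channels of an array unpaired. The count of higher genes was 2 with median centring. With single arrays left out, 2 to 6 were lower and 3 to 5 higher. Over all features, 3109 were lower and 2120 higher, against 1891 lower at offset 0, 1751 with the scanner's ratios or the series matrix, 13177 lower and 6329 higher with median centring, 1215 lower and 1278 higher with no replicate block, and 1219 to 1918 lower and 808 to 1264 higher with single arrays left out. The median of the 40 genes moved to -0.43 with median centring, where that of the brightest band of features was -0.46, and ranged from -0.047 to 0.0068 with single arrays left out. Of that band, 95.3% were called lower with median centring. The cause of these changes was not tested, except that leaving out an array uses fewer samples.

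With median centring, 16 of the 40 genes that passed there or as reported turned sign: Stx1a to -0.23, Vamp1 -0.35, Vamp2 -0.26, Syt1 -0.49, Syt4 -0.028, Sv2b -0.21, Slc17a7 -0.35, Nefl -0.44, Nefm -0.11, Map2 -0.32, Mapt -0.55, Tubb3 -0.33, Camk2a -0.39, Dlg4 -0.054, Nlgn1 -0.21 and Uchl1 -0.34. So did Anks1b to -0.0098, Kif3a -0.028, Scg5 -0.079 and Foxp1 -0.24, and other probes of Cplx2 (-0.021), Camk2b (-0.12) and Rbfox3 (-0.0035). Rab3a turned to 0.023 with the scanner's ratios or the series matrix. With the mean of all probes Cplx2 turned to 0.50 and Lmo4 to 0.048. Keeping outlier spots and treating each probe as a feature were chosen after seeing the data. All 40 genes were well above background, though Syt2 and Shank2 were among the dimmer ones and had wide spreads (SD 0.21 and 0.23), and the number of arrays limits the precision.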

Other observations

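Among the genes named from the other neuronal lists, probes of Rbfox2, Ncdn and Lmo4 had opposite calls, as those of Cplx2 did. These calls are from the fit of all kept probes, and the unnamed genes of those lists were not examined for this. Over the 4533 genes with several kept probes, 2.03% had opposite calls. These 3 genes were singled out after their values were seen. Rbfox2, a splicing factor gene, had a brighter probe at 0.75 ± 0.18 and a second at -0.29 ± 0.07 (SD, n = 4; limma, adjusted p = 0.00177 and 0.00744). Ncdn, which encodes neurochondrin, had -0.41 ± 0.05 and 0.32 ± 0.11 (adjusted p = 0.00227 and 0.00954). Lmo4, a LIM domain gene of cortical neurons, had -0.26 ± 0.07 and 0.36 ± 0.14 (adjusted p = 0.0104 and 0.00913). Of the genes named from the other neuronal lists, Syt6, Kif5a and Kif3a also had a second probe on the other side of 0, at 0.12, 0.06 and -0.02, none of which passed.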
